A study of Mus musculus with 12 samples.

Results

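Gtf2i and Gtf2ird1 are the genes of 2 related transcription factors at one end of the region that is deleted in CD mice, a murine model of Williams-Beuren syndrome. They were taken by gene symbol from the table of normalized counts in cortex, where they are 2 of 17202 genes, and both passed the filter on low values (a mean of at least 10 normalized counts). RNA from the cortex of 12 mice of the strain C57Bl6, 16 weeks old per the labels, was sequenced. There were 4 groups of 3: WT animals on vehicle (VEH-WT) or on the co-treatment (VERCUR-WT), and CD animals on vehicle (VEH-CD) or on the co-treatment (VERCUR-CD). CD mice lack the genes from Gtf2i to Fkbp6 on 1 of their chromosomes 5 and keep the other copy, in every cell. VERCUR is curcumin, a phenol of turmeric, at 60 mg/kg/day together with verapamil, a calcium channel blocker, at 10 mg/kg/day, given in the drinking water for 1 month from 8 weeks of age. These doses and times are those of the labels, which call the control mice untreated. The methods of the study give those mice vehicle, and give less verapamil and an earlier end of treatment. They describe male mice whose background was mostly, and not wholly, C57Bl6. They also describe a cross of the CD line with a Thy1-YFP line, whose transgene labels pyramidal neurons, and the labels do not say which of these mice carried it. The comparisons ask how much of the level of each gene is left in CD mice, whether that share is the same for the pair, and whether co-treatment moves it.

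Gtf2i encodes TFII-I, a protein with repeated I domains that sits in the cytoplasm and in the nucleus. In the nucleus it binds initiator elements and E boxes at promoters, and in the cytoplasm it holds back calcium entry through phospholipase C gamma, with tyrosine kinases such as Src and Btk moving it between these roles. Gtf2ird1 encodes a paralogue with the same kind of repeats that is known chiefly as a repressor, binds sites with the core GGATTA, and is known to bind the promoter of its own gene. The third gene of the family, Gtf2ird2, arose from the same ancestor. In people with Williams-Beuren syndrome, Gtf2i and Gtf2ird1 are the genes most often tied to the social and cognitive traits.

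Both genes lie on the minus strand of chromosome 5 (GRCm38, GENCODE M21). Gtf2i (ENSMUSG00000060261.15) spans chr5:134237834-134314760, with 10199 bases of merged exons, and Gtf2ird1 (ENSMUSG00000023079.14) spans chr5:134357656-134456716, with 7594 bases. They point the same way and are 42895 bases apart. Gtf2ird2 lies just outside the deletion, on the plus strand at chr5:134184019-134224355, beyond Ncf1. The 250 bases before the start of each gene, read on its own strand from RefSeq sequences of GRCm38.p6, are shown because they separate the pair by the site that the Gtf2ird1 protein is known to bind. Capitals mark GGATTA or its reverse complement TAATCC. The first stretch is chr5:134314761-134315010 and the second chr5:134456717-134456966.
Gtf2i: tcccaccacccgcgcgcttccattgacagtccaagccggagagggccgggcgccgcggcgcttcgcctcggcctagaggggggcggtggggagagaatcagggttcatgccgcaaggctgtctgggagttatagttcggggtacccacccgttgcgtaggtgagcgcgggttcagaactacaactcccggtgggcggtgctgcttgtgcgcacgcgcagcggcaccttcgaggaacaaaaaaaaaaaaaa
Gtf2ird1: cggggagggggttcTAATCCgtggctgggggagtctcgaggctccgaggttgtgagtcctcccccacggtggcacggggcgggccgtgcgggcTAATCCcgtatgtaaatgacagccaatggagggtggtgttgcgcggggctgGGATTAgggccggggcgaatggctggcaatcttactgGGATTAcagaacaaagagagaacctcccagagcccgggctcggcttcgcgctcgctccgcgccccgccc

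The window of Gtf2ird1 held 4 copies of GGATTA, searched on both strands. Their first bases were at -236 and -157 on the opposite strand and at -106 and -69 on the strand of the gene, counted from the start. Of 32851 promoters of the same length, 6.25% held at least 1 copy and 2 (0.00609%) held as many as 4. The window of Gtf2i held 0 copies, as did that of Gtf2ird2. The E box CACGTG, which is its own reverse complement, was absent from both windows and present in 6.02% of promoters. The window of Gtf2ird2 held 3 copies, and 0.0609% of promoters held as many. These letters are a description of the windows, and binding was not measured. The windows were rich in G and C, at 63.2% for Gtf2i and 66.0% for Gtf2ird1, where the median of all promoters was 52.4%.

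The libraries held 40290000 to 56480000 counted reads per mouse, and log2 values of mice of one group correlated across genes with r from 0.986 to 0.994. The 7 markers of cortical neurons were detected in every group, with a summed level of 297936 to 371224 normalized counts per mouse. The 5 markers of choroid plexus summed to 130.5 to 207.7. The 6 markers of striatal neurons ranged from 7343 to 32831 and the 13 myelin genes from 85973 to 245436 per mouse, with overlapping ranges in all 4 groups, and their part in the results below was not tested. In bulk tissue, fewer cells of a type and less RNA per cell cannot be told apart.

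Both genes were lower in CD mice, which kept 51.6% of the WT level of Gtf2i and 59.4% of that of Gtf2ird1. Gtf2i was a highly expressed gene in these samples. In the VEH-WT mice its normalized counts were 11904.5, 12750.4 and 12036.0, and in the VEH-CD mice 6189.2, 6729.4 and 6137.9. In the VERCUR-WT mice they were 12031.1, 11903.4 and 11578.6, and in the VERCUR-CD mice 6248.8, 5916.5 and 6016.8. Every CD mouse was far below every WT mouse, with no value between 6729.4 and 11578.6. The group means were 12230 ± 455 (SD, n = 3) in VEH-WT, 6352 ± 328 in VEH-CD, 11838 ± 233 in VERCUR-WT and 6061 ± 170 in VERCUR-CD. The spread within a group was small, with a CV of 1.97% to 5.16%, and the 6 CD mice kept 48.4% to 55.0% of the VEH-WT mean.

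Gtf2ird1 was expressed at a lower level, and its loss was smaller. Its normalized counts were 905.6, 920.2 and 838.7 in the VEH-WT mice and 558.7, 559.8 and 516.3 in the VEH-CD mice. In the VERCUR-WT mice they were 876.0, 800.2 and 959.9, and in the VERCUR-CD mice 550.5, 505.4 and 457.1. The genotypes again did not overlap, with the highest CD mouse at 559.8 and the lowest WT mouse at 800.2. Group means were 888.2 ± 43.5 in VEH-WT, 544.9 ± 24.8 in VEH-CD, 878.7 ± 79.9 in VERCUR-WT and 504.4 ± 46.7 in VERCUR-CD (SD, n = 3). The CV was 4.56% to 9.26%, and the 6 CD mice kept 51.5% to 63.0% of the VEH-WT mean. Of all 17111 genes tested, 0.473% had all 6 CD mice below all 6 WT mice.

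**Figure D1:**
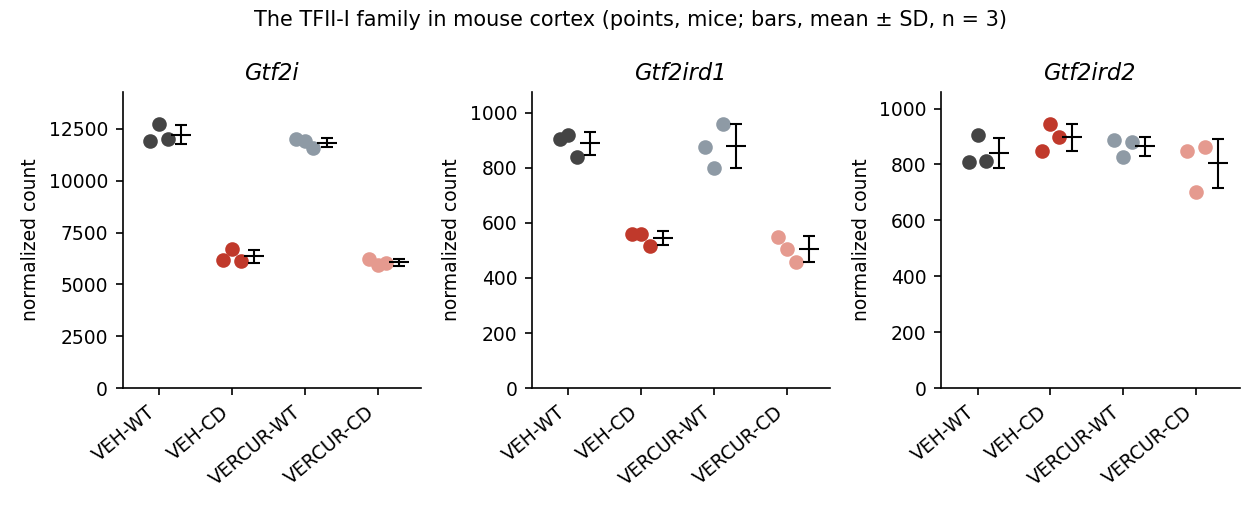
Normalized counts of Gtf2i, Gtf2ird1 and Gtf2ird2 in each of the 12 mice, by group, with the mean and SD of 3 mice and an axis that starts at 0. The CD mice sit below every WT mouse for Gtf2i and Gtf2ird1, while for Gtf2ird2 the 4 groups overlap between 702.4 and 945.7.

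The difference between genotypes was first tested within each treatment. limma, which fits a linear model to each gene and pools information on the spread over genes, was run on log2(normalized count + 1) of all 12 mice, with Benjamini-Hochberg adjustment over 17111 genes. A gene was called when the adjusted p was under 0.05 and the level more than 25% higher or lower. In VEH-CD against VEH-WT mice 0.257% of genes were called, both members among them. The log2 difference was -0.95 for Gtf2i (SE 0.05, 95% interval -1.06 to -0.83, limma adjusted p = 1.55e-06) and -0.70 for Gtf2ird1 (SE 0.09, -0.90 to -0.51, adjusted p = 0.00357). By p value, Gtf2i was number 3 and Gtf2ird1 number 19 of all genes. In VERCUR-CD against VERCUR-WT mice 0.146% of genes were called, again with both members. There the difference was -0.97 for Gtf2i (SE 0.05, -1.08 to -0.85, limma adjusted p = 9.8e-07) and -0.80 for Gtf2ird1 (SE 0.09, -0.997 to -0.60, adjusted p = 0.00101). Co-treated CD mice were also below VEH-WT mice, where 0.199% of genes were called, by -1.01 for Gtf2i (limma adjusted p = 5.63e-07) and -0.82 for Gtf2ird1 (adjusted p = 0.000746). This last comparison shares its VEH-WT mice with the first.

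Over both treatments 0.321% of genes were called, 0.234% as lower in CD mice. Gtf2i had a log2 difference of -0.96 (SE 0.04, limma adjusted p = 1.62e-08), so that CD mice kept 51.6% of the WT level with a 95% interval of 48.7% to 54.6%. Gtf2ird1 had a log2 difference of -0.75 (SE 0.06, limma adjusted p = 3.69e-05) and kept 59.4%, with an interval of 53.9% to 65.4%. The interval of Gtf2i held 50%, the level that 1 of 2 copies would give at equal output. That of Gtf2ird1 lay above 50%.

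Co-treatment did not move either gene beyond the spread between mice. Between VERCUR-CD and VEH-CD mice the log2 difference was -0.07 for Gtf2i, with a 95% interval of -0.18 to 0.05, and -0.11 for Gtf2ird1, with an interval of -0.31 to 0.08 (limma adjusted p = 0.867 for each). Between VERCUR-WT and VEH-WT mice it was -0.05 for Gtf2i (-0.16 to 0.07) and -0.02 for Gtf2ird1 (-0.21 to 0.18, limma adjusted p = 0.999 for each). A rise of more than 0.0822 on the log2 scale in co-treated CD mice thus lay outside the interval of either gene. No gene of the table was called by limma in either comparison (0%), where 3.54% in CD and 5.22% in WT mice had an unadjusted p under 0.05. The interaction of genotype and treatment was -0.02 for Gtf2i (-0.18 to 0.14, limma adjusted p = 0.951) and -0.10 for Gtf2ird1 (-0.37 to 0.18, adjusted p = 0.864). For it 0% of genes had an adjusted p under 0.05, and 6.05% an unadjusted p under 0.05.

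**Figure D2:**
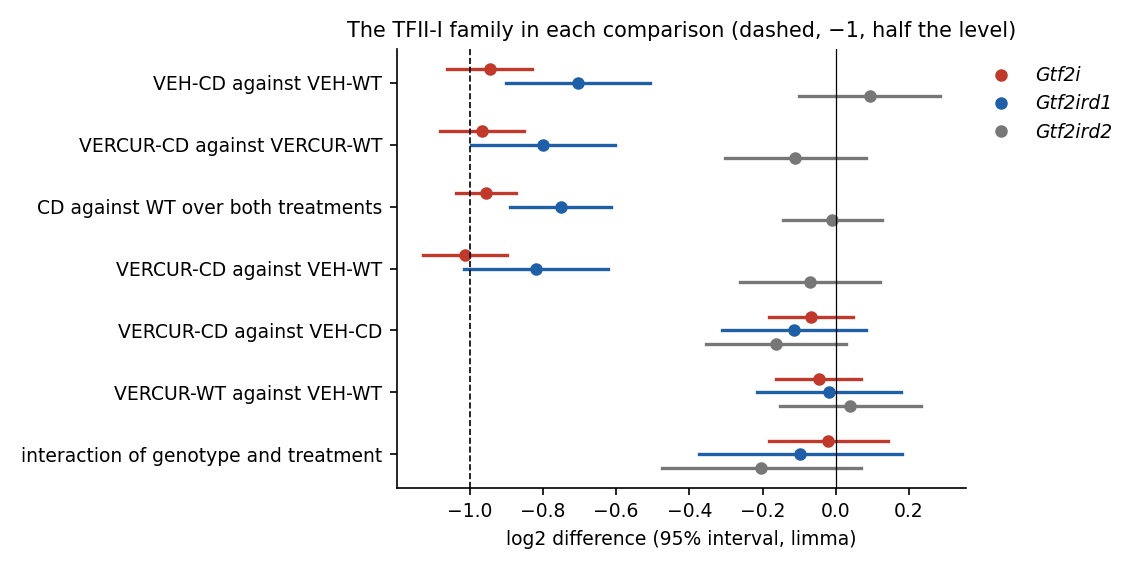
Log2 differences with 95% limma intervals of Gtf2i, Gtf2ird1 and Gtf2ird2 in the 7 comparisons, with a dashed line at -1, which is 50% of the level. Gtf2i and Gtf2ird1 lie between -1.01 and -0.70 in the 4 comparisons of CD with WT mice, and between -0.11 and -0.02 where only the treatment differs and in the interaction, while every interval of Gtf2ird2 holds 0.

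The balance of the pair, taken within each mouse, differed between the genotypes on average. The ratio of Gtf2i to Gtf2ird1 normalized counts was 13.1, 13.8 and 14.3 in the VEH-WT mice and 11.1, 12 and 11.9 in the VEH-CD mice. In the VERCUR-WT mice it was 13.7, 14.9 and 12.1, and in the VERCUR-CD mice 11.3, 11.7 and 13.1. The genotypes were separate under vehicle and overlapped under co-treatment, where the lowest WT mouse, at 12.1, was below the highest CD mouse, at 13.1. On the log2 scale the difference within a mouse averaged 3.56 in CD and 3.77 in WT mice, so the ratio in CD mice was 0.868 of that in WT mice. The change was -0.20 (-0.24 under vehicle and -0.17 under co-treatment). The exact two-sided permutation test, with genotype labels exchanged within each treatment over 400 relabellings, gave p = 0.01, and 0.03 with the Benjamini-Hochberg method over the 3 differences tested, where the smallest possible p was 0.005. The call was lost without some of the mice: the adjusted exact p was 0.0525 without VEH-WT mouse 2 (-0.20) or 3 (-0.19) and 0.06 without VERCUR-WT mouse 2 (-0.17) or VERCUR-CD mouse 1 (-0.18) or 2 (-0.19).

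The same differences were taken against the median log2 value of the other 17 deleted genes of each mouse. These values were not scaled to the WT level of each gene. The median is therefore the value of 1 gene of middle level, such as Rfc2 in VEH-WT mouse 1 and Tbl2 in VEH-CD mouse 1. As this gene changes between mice, the difference does not compare a member with the share kept by the 17 genes as a set. For Gtf2i, CD and WT mice differed by -0.0044 on the log2 scale (exact permutation p = 0.895), which is less than the spread between mice. For Gtf2ird1, CD mice were higher by 0.20 under vehicle and by 0.20 under co-treatment. Its level relative to that median was 0.800, 0.787 and 0.737 in the VEH-WT mice and 0.907, 0.942 and 0.823 in the VEH-CD mice. It was 0.797, 0.682 and 0.782 in the VERCUR-WT mice and 0.924, 0.907 and 0.769 in the VERCUR-CD mice. Under vehicle the CD mice were all above the WT mice, and under co-treatment VERCUR-CD mouse 3, at 0.769, was below 2 of the 3 WT mice. Over both treatments the difference was 0.20, or 1.15-fold (exact permutation p = 0.02, adjusted over the 3 differences 0.03). The adjusted exact p was 0.0525 without VEH-WT mouse 2 (0.21) or 3 (0.18), VEH-CD mouse 2 (0.18) or VERCUR-WT mouse 3 (0.21). It was 0.06 without VERCUR-WT mouse 2 (0.16), VERCUR-CD mouse 1 (0.18) or VERCUR-CD mouse 2 (0.18). The 0.20 depends on which gene was in the middle, and Rfc2 kept 53.6% and Tbl2 48.5% of the WT level. With the mean of the 17 log2 values in place of the median, to which every gene adds, the difference of Gtf2ird1 was 0.26 (adjusted exact permutation p at most 0.03).

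**Figure D3:**
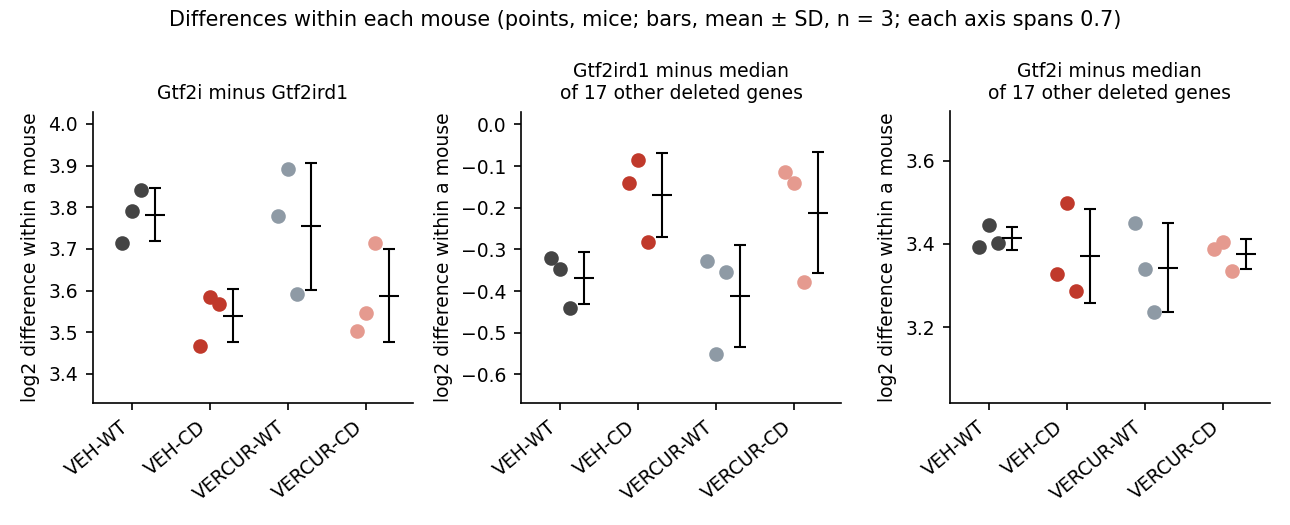
Differences of log2 values within each of the 12 mice, with mean and SD of 3 mice per group, on axes that each span 0.7. Gtf2i minus Gtf2ird1 is lower in CD mice (3.56 against 3.77 on average). Gtf2ird1 minus the median of the other deleted genes is higher (-0.19 against -0.39), and Gtf2i minus that median averages 3.37 in CD and 3.38 in WT mice. In each mouse that median is the value of the gene of middle level, which is not the same gene in all mice.

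The deleted genes did not all keep the same share. Over both treatments the 17 others kept 38.9% to 61.9% of the WT level, with a median of 50.6%, and all 17 were called lower by limma (0.234% of all genes were). Their 95% intervals held 50% in 13 cases. Lat2, an adaptor protein of immune cells, kept 61.9% (52.2% to 73.3%) and was the only one of the 17 with an interval above 50%. Its WT mean was 82.8 normalized counts, so that it rests on far fewer reads than Gtf2ird1, whose WT mean was 883.5. The intervals of Clip2 (46.3%), Limk1 (43.2%), a kinase that acts on the actin cytoskeleton, and Fzd9 (38.9%), a Wnt receptor, lay below 50%. Among the 19 genes Gtf2ird1 was number 2 from the top and Gtf2i number 6. The interval of Gtf2ird1 overlapped those of its neighbours in this order, Lat2 and Mlxipl (47.0% to 68.1%), so their order is not resolved. It also overlapped those of Gtf2i, Rfc2, Dnajc30, Bcl7b, Stx1a, Mettl27, Vps37d, Abhd11 and Eln, and lay above those of Eif4h, Tbl2, Bud23, Baz1b, Clip2, Limk1 and Fzd9.

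**Figure D4:**
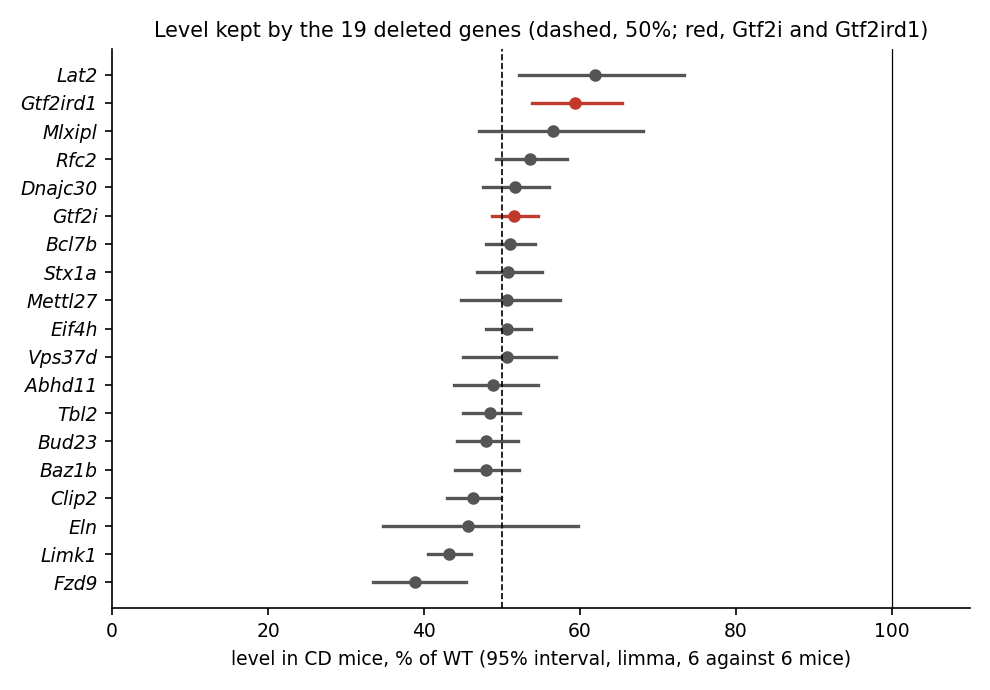
Level in CD mice as a percent of WT mice, with 95% limma intervals over 6 against 6 mice, for the 19 deleted genes in falling order, with a dashed line at 50% and Gtf2i and Gtf2ird1 in red. Gtf2ird1 is second from the top at 59.4% with its interval above 50%, and Gtf2i lies at 51.6% near the median of the others.

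Per kilobase of merged exons, Gtf2i was the most expressed of the family. Its level was 1199 ± 44.6 normalized counts per kilobase in VEH-WT and 623 ± 32.1 in VEH-CD mice, against 117 ± 5.72 and 71.8 ± 3.27 for Gtf2ird1 (SD, n = 3). In the co-treated mice it was 1161 ± 22.9 in WT and 594 ± 16.7 in CD, against 116 ± 10.5 and 66.4 ± 6.15. On this scale Gtf2i was 10.3-fold above Gtf2ird1 in VEH-WT and 8.68-fold above it in VEH-CD mice, and 10.0-fold and 8.95-fold under co-treatment. The merged exons cover every annotated transcript, 28 of Gtf2i and 31 of Gtf2ird1, so a level per kilobase depends on which of them cortex uses.

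Gtf2ird2 is not deleted, and its values show the family member with both copies present. Its normalized counts were 841.8 ± 53.9 in VEH-WT, 897.3 ± 49.0 in VEH-CD, 864.9 ± 33.0 in VERCUR-WT and 803.9 ± 88.3 in VERCUR-CD mice (SD, n = 3). CD and WT mice differed by -0.01 over both treatments (95% interval -0.14 to 0.13, limma adjusted p = 0.985), by 0.09 under vehicle and by -0.11 under co-treatment. A fall of Gtf2ird2 by more than 0.145 in CD mice lay outside the interval, as did a rise of more than 0.127. Per kilobase the order was Gtf2i, Gtf2ird2, Gtf2ird1 in each group, with no overlap of mean ± SD between neighbours. The distances differed, and Gtf2i was 8.83-fold above Gtf2ird2 in VEH-WT and 4.30-fold above it in VEH-CD mice, and Gtf2ird1 was at 0.861 and 0.496 of the level of Gtf2ird2.

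The genes next to Gtf2i outside the deletion were not called by limma either, 0 of 4 in each genotype comparison. Of all genes, 0.146% to 0.321% were called in these comparisons. Over both treatments 1 of the 4 had an unadjusted p under 0.05, as did 9.64% of all genes. That gene, Castor2, a regulator of the mTORC1 pathway, differed by -0.11 (limma adjusted p = 0.479). Ncf1, a subunit of the phagocyte NADPH oxidase, differed by -0.19 (adjusted p = 0.582), and Rcc1l, a mitochondrial protein, by 0.12 (adjusted p = 0.679). Within the limits of Gtf2i lies Gm43481, a transcript model of 1 exon on the same strand that shares 0 bases with exons of Gtf2i. It was low, at 45.6 ± 11.8 in VEH-WT, 29.3 ± 9.36 in VEH-CD, 44.9 ± 15.4 in VERCUR-WT and 23.0 ± 1.66 normalized counts in VERCUR-CD mice (SD, n = 3). Its difference over both treatments was -0.76 (SE 0.21), which did not pass the adjustment (limma adjusted p = 0.231). As it lies on the strand of Gtf2i, its reads and those of unspliced Gtf2i RNA cannot be told apart.

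Reads that fit another gene could blur the levels of a family of paralogues. Of 11193 different stretches of 100 bases, the read length, in the transcripts of Gtf2i, 0 also occur in a transcript of another gene in the GENCODE annotation. For Gtf2ird1 74 of 8786 (0.842%) do, all shared with the gene models Gm28883 and Gm42882. For Gtf2ird2 153 of 6237 (2.45%) do, all shared with Ncf1, whose annotated end overlaps it on the other strand. None of the 3 genes shares such a stretch with another member of the family.

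Genes known from the literature as targets of the family include Fos, an immediate early gene, Hspa5, Pdia4 and Calr, chaperones of the endoplasmic reticulum that TFII-I acts on in the stress response, Ccnd1, a cyclin, Kdr, a VEGF receptor, and Tnni1, the troponin of slow muscle on which Gtf2ird1 was first described. Of 9 such genes 7 were tested, and Gsc and Hoxc8 are not analysed here. None was called by limma in any of the 3 genotype comparisons. Of all genes, 0.257% were called under vehicle, 0.146% under co-treatment and 0.321% over both treatments. Over both treatments 3 of the 7 had an unadjusted p under 0.05, where 9.64% of all genes did. The count was 3 of 7 under vehicle (11.8% of all genes) and 2 of 7 under co-treatment (4.1% of all genes). Over both treatments the median difference was -0.09, where the median of all genes was 0.00. The lowest p values were those of Pdia4 and Hspa5. The normalized counts of Pdia4 were 2222 ± 361 in VEH-WT, 1576 ± 237 in VEH-CD, 1970 ± 295 in VERCUR-WT and 1583 ± 114 in VERCUR-CD mice (SD, n = 3), with a difference of -0.40 (SE 0.10, limma adjusted p = 0.171). The highest VEH-CD mouse, at 1835.8, lay just under the lowest VEH-WT mouse, at 1870.7. How many of all genes separate 3 against 3 mice was not counted. Hspa5 had 15432 ± 2175, 11552 ± 1647, 13523 ± 1740 and 11051 ± 695 normalized counts in the same order, with a difference of -0.35 (SE 0.09, limma adjusted p = 0.171). Fos had the widest spread of the list. Its normalized counts were 1964.8, 3080.5 and 2587.4 in the VEH-WT mice and 277.6, 1279.5 and 819.3 in the VEH-CD mice. They were 1704.5, 595.5 and 1784.4 in the VERCUR-WT mice and 1409.9, 747.3 and 1334.8 in the VERCUR-CD mice, where the genotypes overlap. Its difference was -1.02 over both treatments (limma adjusted p = 0.373), -1.91 under vehicle (95% interval -3.03 to -0.80, limma adjusted p = 0.181) and -0.12 under co-treatment (-1.23 to 0.99, adjusted p = 1.0), and the interaction was 1.79 (0.22 to 3.37, limma adjusted p = 0.816). The remaining differences over both treatments were -0.09 for Calr, 0.05 for Ccnd1, 0.04 for Kdr and 0.23 for Tnni1, with adjusted p values (limma) from 0.572 to 0.964.

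The proteins that TFII-I and its paralogue bind, and the kinases that act on them, were measured as 22 genes, among them the histone deacetylases Hdac1, Hdac2 and Hdac3, the demethylase Kdm1a with Rcor1, Phf21a, Hmg20b and Zmym2, the E box factors Usf1 and Usf2, and the kinases Src, Btk, Jak2 and Mapk3. Of these 0 of 22 were called by limma over both treatments, where 0.321% of all genes were. An unadjusted p under 0.05 was found for 2 of 22, a share near the 9.64% of all genes. The count was 3 of 22 under vehicle (11.8% of all genes) and 1 of 22 under co-treatment (4.1% of all genes). The median difference over both treatments was 0.00. Mapk3, the kinase ERK1, differed by 0.19 (SE 0.05, limma adjusted p = 0.17), at 6617 ± 126 in VEH-WT and 7577 ± 278 normalized counts in VEH-CD mice. Srf, the serum response factor that acts with TFII-I on Fos, differed by -0.23 (SE 0.06, limma adjusted p = 0.171). In single mice the normalized counts of Srf were 2189.0, 2609.4 and 2470.1 for VEH-WT and 1769.8, 2017.7 and 1730.9 for VEH-CD. These did not overlap, but the share of all genes that separate 3 against 3 mice was not counted. In the co-treated mice Srf was at 2133.0, 2089.5 and 2072.5 in WT and at 2049.5, 2092.7 and 1887.2 in CD, which overlap. Its difference was -0.40 under vehicle (limma adjusted p = 0.0697) and -0.06 under co-treatment (adjusted p = 1.0), and the interaction was 0.33 (95% interval 0.09 to 0.58, limma adjusted p = 0.816).

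The general transcription factors, which assemble with RNA polymerase II at promoters and share the TFII names with TFII-I, were measured as 31 genes. None was called by limma over both treatments, where 0.321% of all genes were. An unadjusted p under 0.05 was found for 3 of 31, again near the 9.64% of all genes. The count was 7 of 31 under vehicle (11.8% of all genes) and 0 of 31 under co-treatment (4.1% of all genes), and the median difference over both treatments was -0.02. The lowest p values were those of Taf12, a subunit of TFIID (-0.18, SE 0.05, limma adjusted p = 0.235), and Gtf2h2, a subunit of TFIIH (0.19, SE 0.06, adjusted p = 0.267). Myelin genes were included because loss of Gtf2i in neurons is known to lower myelination in mice. Of 13 myelin genes 0 were called over both treatments, where 0.321% of all genes were. An unadjusted p under 0.05 was found for 0 of 13, and for 9.64% of all genes. Counts of 0 in so short a list say little about myelin. Their median difference was 0.02 over both treatments, -0.19 under vehicle and 0.24 under co-treatment, and the summed level overlapped between all groups, from 146261 to 185285 in VEH-CD and from 155955 to 245436 in VEH-WT mice. Aspa, an enzyme that oligodendrocytes use to make lipids for myelin, differed by 0.21 (limma adjusted p = 0.764) and Opalin, a myelin membrane protein, by 0.18 (adjusted p = 0.867).

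**Figure D5:**
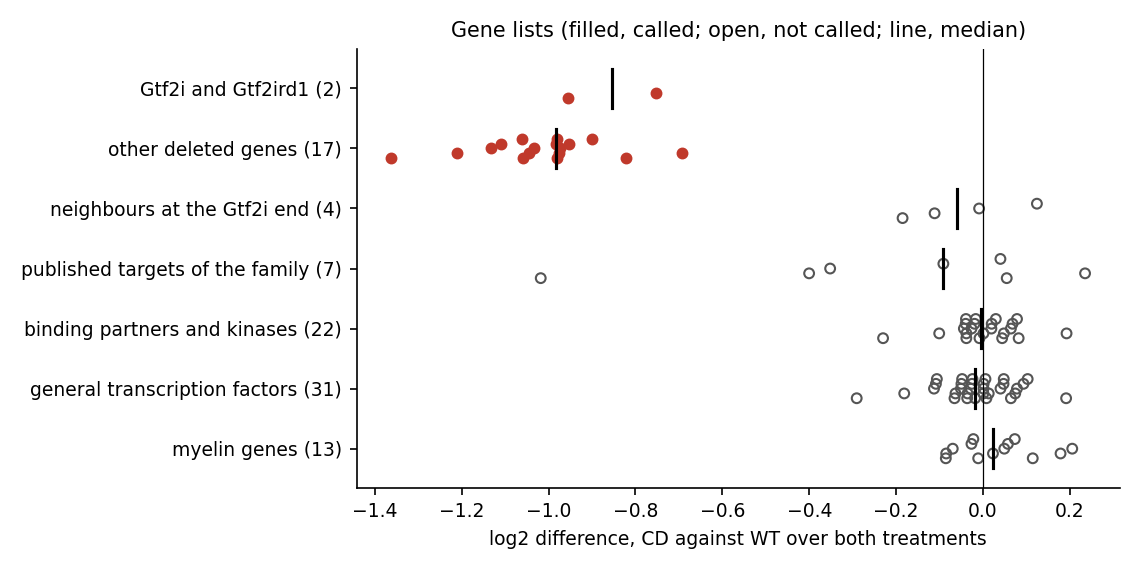
Log2 differences of CD against WT mice over both treatments for each gene of the lists, with the number of genes tested in brackets, filled points for genes called and a line at the median. The 2 family members and the 17 other deleted genes lie between -1.36 and -0.69 and are all called. No gene of the other 5 lists is called, with list medians from -0.09 to 0.02. Of all genes tested, 0.321% are called.

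The 5 genes whose log2 values followed Gtf2i most closely over the 12 mice were other deleted genes, with a Pearson r of 0.994 for Clip2, 0.993 for Limk1, 0.992 for Tbl2, and 0.991 for Baz1b and Eif4h. For Gtf2ird1 the 5 closest deleted genes were Bcl7b (0.975), Bud23 (0.974), Gtf2i (0.974), Clip2 (0.968) and Limk1 (0.966), and Ighg2c, outside the region, came before the last pair at 0.973. These values are a description over 12 mice that fall into a WT and a CD group and share libraries and the deletion, so they reflect the difference between genotypes. Outside the region, 4 of the 5 genes most like each member were the same: Gm45351, Gm14295, Gm5784 and Ighg2c, an immunoglobulin constant gene, with r from 0.941 to 0.969 for Gtf2i and from 0.943 to 0.973 for Gtf2ird1. Zfp970 (0.919) completed the 5 for Gtf2i and Gm40518 (0.923) those for Gtf2ird1. The normalized counts of Ighg2c were 265.3 ± 25.0 in VEH-WT, 126.8 ± 23.3 in VEH-CD, 234.8 ± 12.7 in VERCUR-WT and 89.8 ± 17.7 in VERCUR-CD mice (SD, n = 3). Gm14295 had 1091 ± 62.4, 719.8 ± 79.0, 1065 ± 105 and 658.0 ± 50.7 in the same order. Gm45351 and Gm5784 were low and fell further than the members. Over both treatments Gm45351 averaged 21.8 normalized counts in WT and 0.2 in CD mice, and Gm5784 66.4 and 9.26.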

How the data were processed

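RNA of the cortex of 12 mice was sequenced. Per the submitters' processing notes, STAR 2.5.3a mapped the reads to GRCm38. The values that the authors deposited, and that are used here, are normalized counts: the reads counted on each gene over a factor that is the same for all genes of a sample. The counting program and the normalization are not given in the sources used here. In each sample 100% of the values under 30 were whole multiples of 1 step, within 0.0051 normalized counts, which gives the reads counted. Each mouse was assigned to its group by its label, and each column by the name it shares with 1 label. Another 2 deposited tables, with values relative to the WT mice on vehicle for leading and recovered DEGs of the study, hold neither gene and were not used.

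The tests ran in limma 3.58.1 (R 4.3.3) on log2(normalized count + 1) of the 17111 genes with a mean of at least 10, with 4 group means and an intensity trend. This scale understates changes of low genes. Two-sided p values had Benjamini-Hochberg adjustment over these genes. Within-mouse differences used exact permutation tests over mice (Python 3.11.15, numpy 2.4.6). The fit was tested on simulated data. Replicates are separate mice per the methods of the study, which give 3 mice per group, and the labels only number them.

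Named genes are both members, the genes beside or inside Gtf2i, the 2 genes of lowest p in each list of the family's partners and targets (the other targets were named after their values were seen), and the 5 genes most like each member inside and outside the deletion. The members and lists were chosen with earlier results of these data known. Alternatives were other pseudocounts, filters, normalizations, CV limits, fits and each mouse left out.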

Additional observations from a re-analysis of the deposited data

How the results depend on the processing

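All 8 genotype differences of Gtf2i and Gtf2ird1 stayed called lower in CD mice under all 182 alternatives run on them, each mouse left out included, with log2 values from -1.04 to -0.67 and a highest limma adjusted p of 0.0455. Over the 20 results of the tests, 402 of 430 alternative values were the same. For a difference this means that it kept its direction and call. For the results that are numbers of genes called, it means that the number stayed near the main one. limma-voom on the recovered reads was chosen after seeing the data, and the count test with edgeR was not run. The number of genes called in VEH-CD against VEH-WT mice was 44, it was 81 among genes with a CV under 20% in each group, and it ranged from 24 to 71 with 1 mouse left out (24 to 28 without VEH-WT mouse 2 or 3 or VEH-CD mouse 1 or 3, and 71 without VERCUR-CD mouse 2). The causes were not tested.

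Values near 0 changed sign without being called. Gtf2ird1 in VERCUR-WT against VEH-WT mice was 0.0043 with quantile normalization and -0.084 to 0.0471 with 1 mouse left out, and the interaction of Gtf2i was -0.0507 to 0.022 with 1 mouse left out. Gtf2i minus the median of the other deleted genes was 0.0601 when the mean of those genes replaced the median, and -0.0364 to 0.0226 with 1 mouse left out. With 1 mouse left out, Gtf2i minus Gtf2ird1 was -0.24 to -0.17 and Gtf2ird1 minus that median 0.16 to 0.24. The call was kept in 7 of 12 such runs for the former and in 5 of 12 for the latter (adjusted exact permutation p up to 0.06). With 11 mice fewer relabellings exist, and whether this bears on the lost calls was not tested.

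Mice with the same replicate number did not deviate together (r of -0.347 to 0.267 over 18 pairs, and 5 of 12 mice correlated best with their own number), so the numbers do not pair the mice. With the replicate number as a replicate block, the differences over both treatments were -0.96 for Gtf2i and -0.75 for Gtf2ird1, with 49 genes called against 55, and the block changed no call of either gene. Depth limited the low genes, such as Lat2 and Gm43481, more than Gtf2i and Gtf2ird1. The 3 mice per group limit every interval.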
